A study of Mus musculus with 10 samples.

Results

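Erythroid genes and haemoglobins were examined in olfactory epithelium, the sensory lining of the nose, as 8 genes chosen by name. They are Alas2, which starts haem synthesis in red cell precursors, Slc4a1 and Epb42 of the red cell membrane, Car1, a carbonic anhydrase, and the adult globin genes Hba-a1, Hba-a2, Hbb-bs and Hbb-bt. All 8 had a row among the 24421 genes of the authors' deposited table, 7 under these symbols and Epb42 under its older symbol Epb4.2. The tissue came from 6 mice labelled Apoe4 and 4 mice labelled Apoe3, human alleles of the gene for the lipid carrier apolipoprotein E. All were untreated, 6 months old and of the C57BL/6 background, and how the alleles were placed in the mouse genome, and the animals' sex, are not given in the labels. Poly(A)-selected RNA was sequenced as read pairs of 150 bases, and genotype is the only labelled difference.

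Red cells lose their nucleus before they enter the blood, yet the youngest of them, the reticulocytes, still carry messenger RNA. In their marrow precursors the transcription factors GATA1 and KLF1 switch on haem synthesis, the globin chains that hold the haem, and the membrane skeleton. Erythroid RNA in a solid tissue can therefore come from blood in its vessels or from marrow in attached bone. In bulk tissue, fewer red cells and less RNA per cell cannot be told apart.

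The 4 erythroid genes outside the globin clusters had lower mean counts in Apoe4 than in Apoe3 epithelium. The 4 adult globin genes chosen were all listed at a mean of 0. In the authors' deposited table, 3 members had an adjusted p (Alas2, Slc4a1 and Car1), and all 3 were below 0.05 and lower in Apoe4. Of the 16050 genes tested, 0.455% were called lower and 0.324% higher. The members were chosen with earlier results of these data known, so their count beside these shares is not a test of the group. Epb42 lay under the authors' filter on low means, and the globins had no fold change, so the haemoglobins in this tissue cannot be described by level. Values for single libraries were not analysed here, so each gene is given by its mean over all 10 libraries and by means per genotype solved from the fit.

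The adult globins come in pairs whose coding sequences are near copies, so few coding bases tell the reads of partners apart. Hba-a1 (chromosome 11, 32283672 to 32284486, GRCm38.p6) and Hba-a2 (chromosome 11, 32296492 to 32297310) encode the alpha chain. Their coding sequences of 429 bases differed at 1 base (99.8% identity), with an identical run of 380 bases. Hbb-bs (chromosome 7, 103826523 to 103827928) and Hbb-bt (chromosome 7, 103812524 to 103813923) encode the beta chain, and their 444 coding bases also differed at 1 base (99.8%), with an identical run of 416 bases. The stretches below, from the GENCODE vM21 transcripts, hold that single difference in capitals, and each is as long as 1 read, taken from coding positions 280 to 429 for the alpha genes and 295 to 444 for the beta genes.
Hba-a1: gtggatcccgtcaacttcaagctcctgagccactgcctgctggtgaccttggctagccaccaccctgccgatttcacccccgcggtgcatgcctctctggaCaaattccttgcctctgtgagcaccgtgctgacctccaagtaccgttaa
Hba-a2: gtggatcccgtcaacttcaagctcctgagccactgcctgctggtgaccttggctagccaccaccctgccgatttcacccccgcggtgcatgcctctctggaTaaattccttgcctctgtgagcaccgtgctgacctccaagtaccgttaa
Hbb-bs: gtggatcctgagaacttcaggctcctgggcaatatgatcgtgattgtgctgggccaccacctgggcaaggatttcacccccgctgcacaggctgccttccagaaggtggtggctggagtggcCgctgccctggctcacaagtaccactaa
Hbb-bt: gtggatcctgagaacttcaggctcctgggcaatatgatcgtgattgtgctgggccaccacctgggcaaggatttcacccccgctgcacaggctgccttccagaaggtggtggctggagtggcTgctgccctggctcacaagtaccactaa

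Counting programs can leave out reads that map equally well to several genes. Of all windows of 150 bases in a transcript, the share also found in another gene's transcript was 48.4% for Hba-a1 (266 of 550), 65.7% for Hba-a2 (266 of 405), 58.7% for Hbb-bs (281 of 479) and 50.7% for Hbb-bt (281 of 554). For Alas2, Slc4a1, Car1 and Epb42 no window was shared. Among all genes in the table with a transcript in the annotation, 25.6% of the 687 with 25 to 75% of windows shared were listed at 0, against 5.89% of the 17467 with none shared. The share was 66.4% of the 455 genes above 75%. The part of shared sequence in the zeros of the adult globins was not tested. Between 139 (Hba-a2) and 284 (Hba-a1) windows of each adult globin transcript were in no other gene's transcript.

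**Figure D1:**
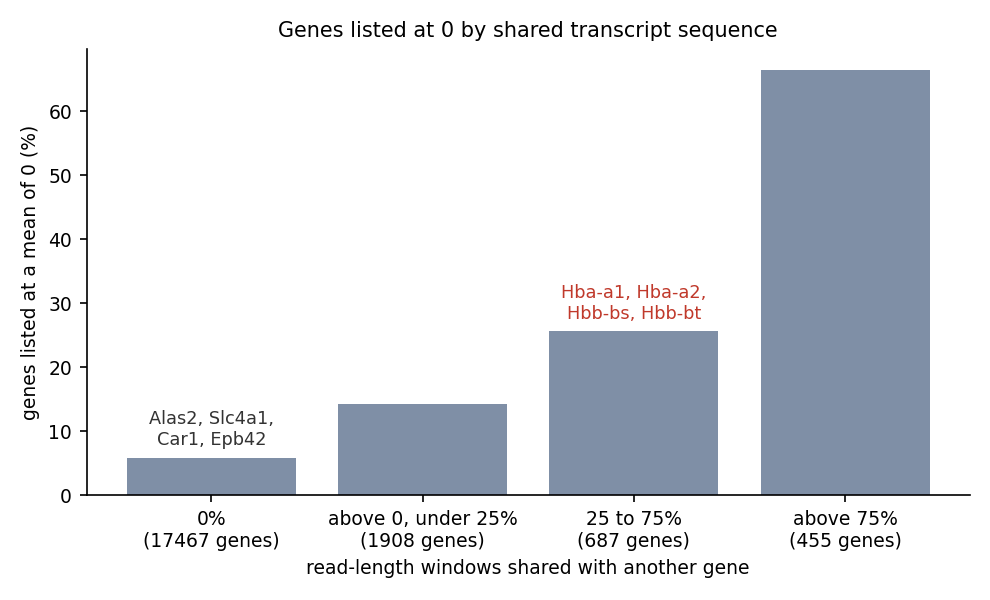
Share of genes listed at a mean of 0 (vertical axis, percent), by the share of their read-length windows found in another gene's transcript (horizontal axis). The bar that holds the 4 adult globins stands at 25.6%, above the 5.89% of the bar that holds Alas2, Slc4a1, Car1 and Epb42.

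Other globins were at or near 0 too. Of 12 genes matched on a list of globins and their chaperone, 8 were listed at 0. Among them were the beta-like genes Hbb-bh1 and Hbb-bh2, which shared no window with another gene. The beta globin symbols Hbb-b1 and Hbb-b2, for which no transcript length was found, were also at 0. Their part in the zeros of Hbb-bs and Hbb-bt was not tested. The embryonic genes Hba-x and Hbb-y had means of 0.218 and 0.713 normalized counts in the authors' deposited table, and the theta genes Hbq1a and Hbq1b had 0.277 and 0.96. All 4 lay far under the filter, and none had an adjusted p. Globins made outside red cells were measured: Cygb, cytoglobin, had a mean of 738 normalized counts and, per the authors' deposited table, a log2 fold change of -0.05 (DESeq2 adjusted p = 0.905).

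Promoters of erythroid genes commonly carry the GATA1 motif GATAA and the KLF1 motif CACCC. RefSeq promoters of GRCm38.p6 (the 250 bases before the annotated start) were found for 6 members: Alas2, Epb42 and the 4 adult globins. GATAA or its reverse complement TTATC stood once in each of the 6, beside 22.6% of 32851 promoters of the same length. CACCC or its reverse complement GGGTG stood in 5 of them, with 3 copies in Alas2 and Hbb-bt, 2 in each alpha gene, 1 in Hbb-bs and 0 in Epb42, beside 52.0% of all promoters. Both motifs together stood in 10.1% of all promoters. The promoters of Alas2 (chrX:150547167-150547416, plus strand), Hba-a2 (chr11:32296242-32296491, plus strand) and Hbb-bs (chr7:103827929-103828178, minus strand) are shown because they belong to the haem, alpha and beta genes. Capitals mark the motifs on either strand, and the repeated copies in Alas2 lie side by side.
Alas2: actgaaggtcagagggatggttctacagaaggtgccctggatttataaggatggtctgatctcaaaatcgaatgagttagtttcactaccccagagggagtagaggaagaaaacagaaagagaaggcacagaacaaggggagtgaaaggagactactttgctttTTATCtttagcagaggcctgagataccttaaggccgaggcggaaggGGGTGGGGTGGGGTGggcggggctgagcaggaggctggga
Hba-a2: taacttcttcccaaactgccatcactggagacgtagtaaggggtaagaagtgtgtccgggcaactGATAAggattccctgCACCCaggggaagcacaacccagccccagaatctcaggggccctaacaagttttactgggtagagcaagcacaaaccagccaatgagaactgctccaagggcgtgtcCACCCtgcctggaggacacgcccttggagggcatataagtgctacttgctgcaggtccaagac
Hbb-bs: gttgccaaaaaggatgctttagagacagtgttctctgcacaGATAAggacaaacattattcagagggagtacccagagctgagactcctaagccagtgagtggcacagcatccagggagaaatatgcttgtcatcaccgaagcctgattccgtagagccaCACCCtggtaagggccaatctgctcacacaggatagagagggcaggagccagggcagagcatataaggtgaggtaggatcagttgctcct
The alpha promoters shared an identical stretch of 247 of their 250 bases, and the beta promoters one of 14. A motif match describes the letters in this window and shows neither binding nor a cause.

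Alas2 (chromosome X, 150547417 to 150570622) encodes the erythroid form of 5-aminolevulinate synthase, the first and rate-limiting enzyme of haem synthesis. Its mean was 164 normalized counts, or 80.5 per kilobase of transcript, the highest level per length among the members. The authors' deposited table gave a log2 fold change of -0.46 ± 0.10 (SE; 6 Apoe4 and 4 Apoe3 libraries), with a DESeq2 adjusted p of 0.00337. These folds were shrunk, that is pulled towards 0 by the model, the more so the less certain a gene was. Alas2 is X-linked; of 520 X-linked genes tested, 3 were lower and 5 higher in Apoe4, with a median log2 fold change of 0.02.

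Slc4a1 (chromosome 11, 102348820 to 102365281) encodes band 3, the anion exchanger that swaps chloride for bicarbonate across the red cell membrane and anchors its skeleton. Its mean was 93.5 normalized counts, or 20.6 per kilobase. The shrunken log2 fold change, from the authors' deposited table, was -0.27 ± 0.06 (SE), with a DESeq2 adjusted p of 0.00509. Epb42 (chromosome 2, 121017891 to 121036877) encodes protein 4.2, which ties band 3 to ankyrin in the membrane skeleton. Its mean was 8.68 normalized counts, or 2.11 per kilobase, under the authors' filter. The authors' deposited table gave it a shrunken log2 fold change of -0.23 ± 0.06 (SE) and an unadjusted DESeq2 p of 9.1e-05. With the same p-values adjusted over all 20776 genes that had one, Epb42 passed at 0.0208, where 0.322% of genes were called lower.

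Car1 (chromosome 3, 14766214 to 14808365) encodes carbonic anhydrase 1, an abundant soluble enzyme of red cells that interconverts carbon dioxide and bicarbonate. Its mean was 14.4 normalized counts, or 12.0 per kilobase. The authors' deposited table gave a shrunken log2 fold change of -0.25 ± 0.06 (SE), with a DESeq2 adjusted p of 0.0171. Car1 has a short transcript of 1194 bases, and its call was lost once the trend of the Wald statistic with transcript length was removed (adjusted p = 0.177). The calls of Alas2 (adjusted p = 0.0225) and Slc4a1 (adjusted p = 0.00132) held without that trend, where 0.332% of genes were called lower. None of the 3 passed a Holm adjustment, which called 0.168% of genes lower. None passed a test of the shrunken folds against a fold of 1.2, which called 0.0748%. Because the folds were shrunken, failing that test does not show a change under 1.2-fold before shrinkage. All 3 kept their call with the statistic recentred on its median (0.492% of genes lower), and Alas2 and Slc4a1, the members with a mean of at least 50, kept theirs among genes of that level (0.489%).

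**Figure D2:**
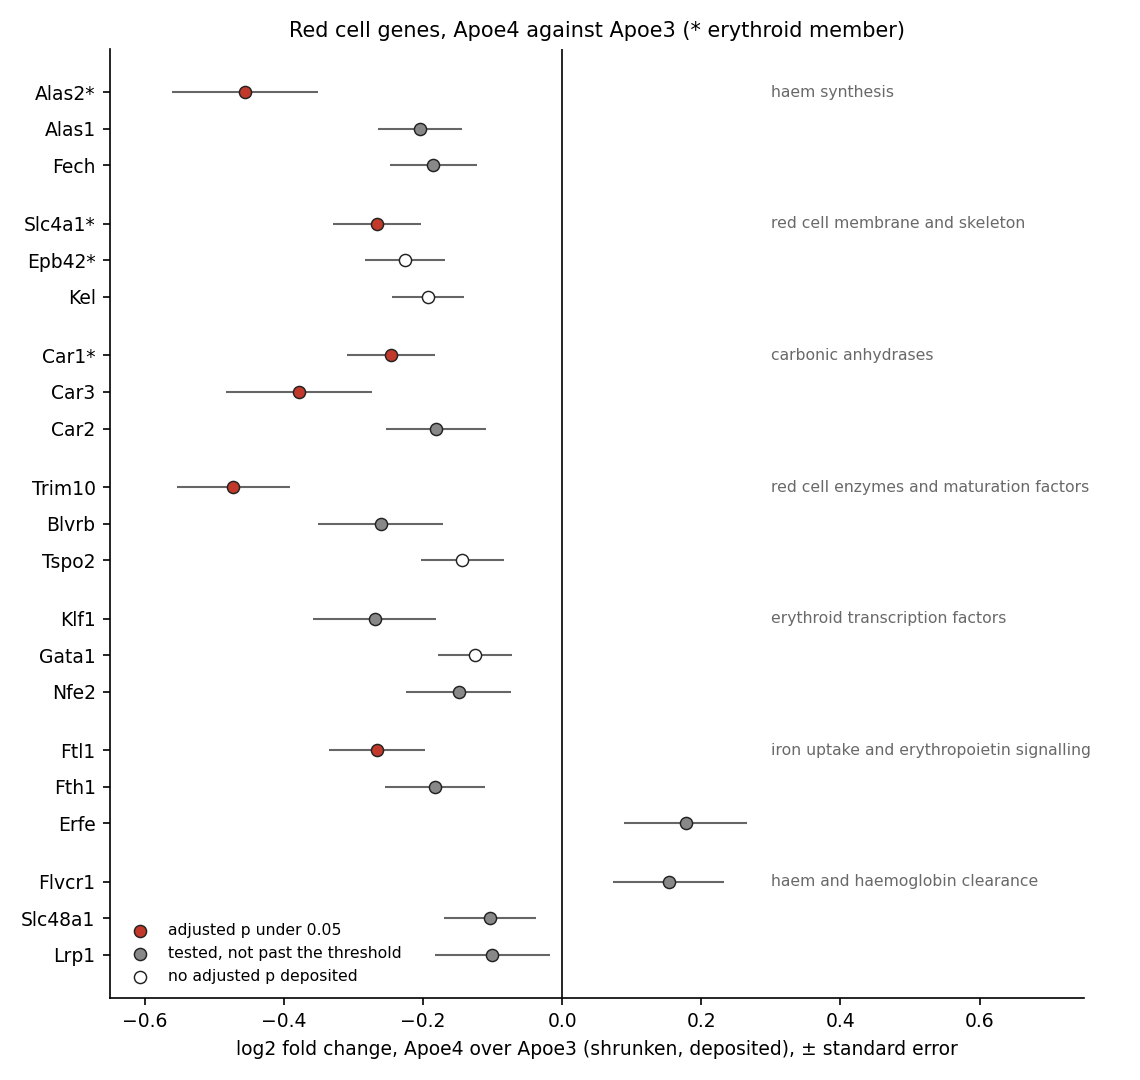
Shrunken log2 fold changes of Apoe4 over Apoe3 from the authors' deposited table, with their standard errors as bars, for the members (asterisks) and named genes of each red cell list. The 4 members with a value lie left of 0, from -0.46 for Alas2 to -0.23 for Epb42, with Alas2 and Trim10 farthest left.

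The shrunken folds hide how far apart the genotype means lay. Because the model caps every standard error at 0.105, a gene's mean, shrunken fold and standard error together fix its 2 genotype means, up to 2 solutions where the gene's spread is not settled. For 517 genes with a single read, whose true means are known, the solved mean of the genotype with the read was 0.968 to 0.987 of the true one, and that of the other genotype 0.855 to 4.79% of it. Each of the 517 had 1 solution and no read in the other genotype. The check therefore says little about accuracy for the members, whose means were far higher. Solved values come from the same fit as the folds and add no separate evidence of a difference.

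Solved in this way, Slc4a1 averaged 25.7 normalized counts in Apoe4 and 195 in Apoe3, a log2 fold change of -2.92, or 7.59-fold lower. Epb42 averaged 2.17 in Apoe4 and 18.5 in Apoe3, a log2 fold change of -3.09. Car1 averaged 4.76 in Apoe4 and 28.8 in Apoe3, a log2 fold change of -2.59. A second estimate divided each shrunken fold and its standard error by the share that the model kept. That share was 9.81% for Slc4a1 and 8.15% for Epb42. This gave log2 fold changes of -2.71 ± 0.64 (SE) for Slc4a1, -2.77 ± 0.71 (SE) for Epb42 and -2.46 ± 0.63 (SE) for Car1. Alas2 had 2 solutions, 116 in Apoe4 and 236 in Apoe3 (log2 fold change -1.03) or 126 in Apoe4 and 221 in Apoe3 (-0.80). The second estimate for Alas2 was -1.04 ± 0.24 (SE) or -0.81 ± 0.19 (SE). Alas2 had the largest shrunken fold of the 4 and the smallest solved one. Among 2902 genes with 1 solution and a mean of at least 5, 0.517% had a solved log2 fold change of -2 or lower, Slc4a1, Epb42 and Car1 among them.

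**Figure D3:**
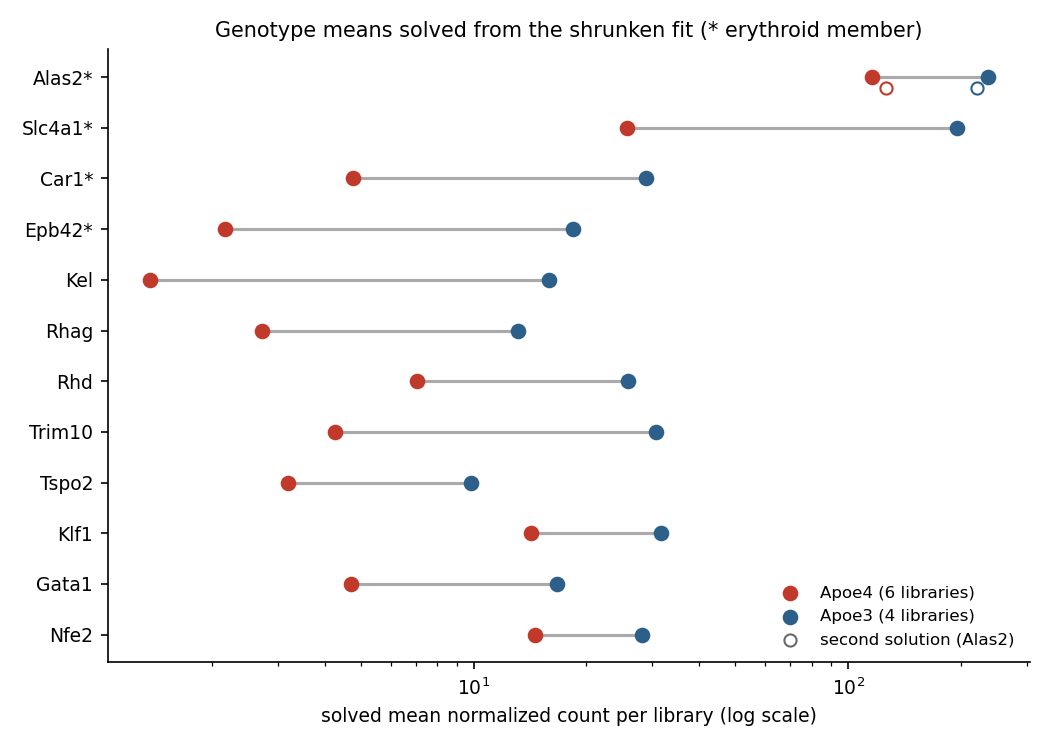
Mean normalized counts per library solved for Apoe4 (red) and Apoe3 (blue), on a log axis. Shown are the members with a value (asterisks) and a selection of other red cell genes. Some named genes with a solution are left out, among them Alas1, Fech, Car2, Car3, Ftl1 and Erfe. The solved mean of Erfe was higher in Apoe4 (18.2) than in Apoe3 (10.3). The Slc4a1, Car1 and Epb42 points are widely spaced, and the Alas2 points lie closer, in both of its solutions.

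The spread between libraries of a genotype that the fit used was wide for 3 of the members. As a coefficient of variation (CV), it was 67.8% for Slc4a1, 67.8% for Epb42, 62.4% for Car1 and 24.5% or 18.4% for Alas2. Of 2912 genes with a mean within 2-fold of that of Slc4a1, 1.24% had as large a dispersion. The same share was 6.89% of 2002 genes for Car1 and 14.4% of 1800 genes for Epb42. For Slc4a1, then, libraries of the same genotype differed from each other more than they did for most genes of its level, and the tests above already carry that spread. Which libraries were high was not analysed here.

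**Figure D4:**
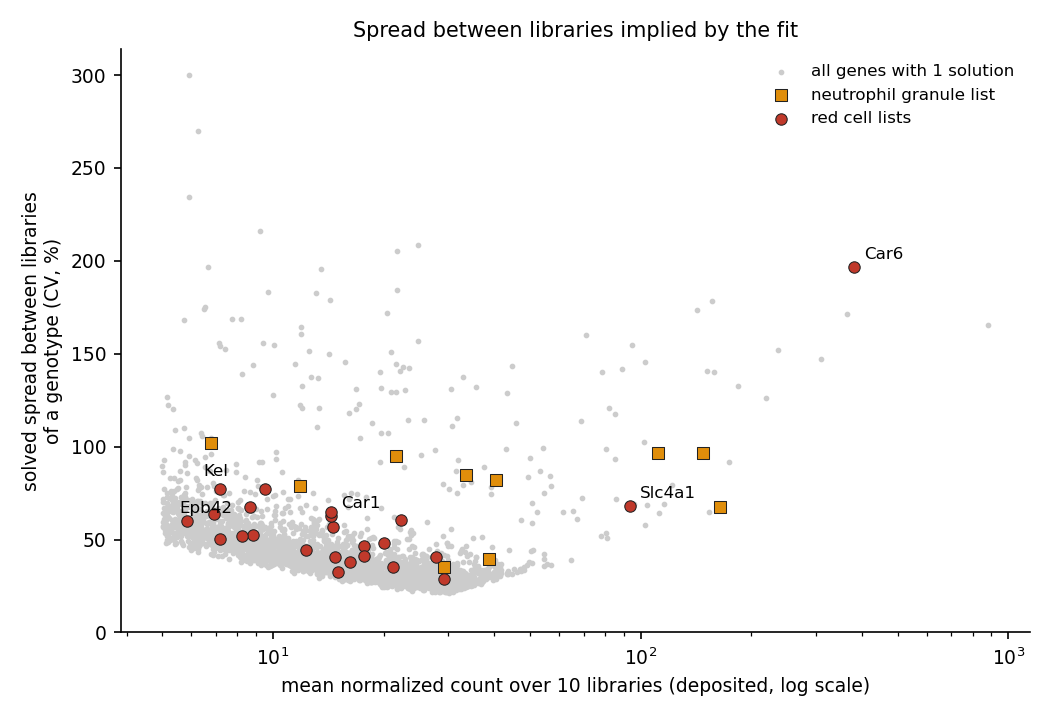
Solved spread between libraries of a genotype (CV, vertical axis, percent) against the mean normalized count (horizontal log axis). Genes with 1 solution and a mean of at least 5 are shown (grey), with red cell lists (red) and the neutrophil list (orange). Slc4a1 stands at 67.8%, and the highest red point among those plotted is Car6, a secreted carbonic anhydrase. Genes with more than 1 solution are left out. The figure therefore cannot show where Slc4a1 or the neutrophil genes lie among all genes of their level.

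Other genes of red cells were read from 8 lists of haem, globin, membrane, carbonic anhydrase, enzyme, transcription factor, iron and clearance genes. Leaving the members out, 76 of 93 matched genes were tested. By the authors' adjusted p, 4 were lower in Apoe4, among them Car3, Trim10 and Ftl1, and 0 were higher. Of all genes tested, 0.455% were called lower and 0.324% higher, which also applies to the counts per list below. The lists were chosen with earlier results of these data known, so their counts beside these shares are not a test. Of the 76 genes, 50 had a negative fold, with a median log2 fold change of -0.05, against 7853 negative folds among the 16050 genes tested and a median of 0.00. At an unadjusted DESeq2 p under 0.05 there were 16 of the 76, 15 lower and 1 higher, where 5.76% of all genes tested were lower and 4.54% higher.

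In haem synthesis, 1 of 12 tested genes (Alas2) was lower and 0 higher, with 10 negative folds and a median log2 fold change of -0.11. Alas1, the housekeeping form of the same enzyme, had a mean of 5128 normalized counts and a log2 fold change of -0.20 ± 0.06 (SE) in the authors' deposited table, which missed the threshold (DESeq2 adjusted p = 0.0789). Fech, which inserts iron into the haem ring, had -0.19 in the authors' deposited table (DESeq2 adjusted p = 0.181), and was past the threshold (0.0407) once that trend was subtracted.

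Of 13 tested membrane and skeleton genes, 2 were lower, Slc4a1 among them, and 0 were higher, with a median log2 fold change of -0.02. Kel, a blood group endopeptidase bound to the membrane protein Xk, lay under the filter at 7.18 normalized counts, with solved means of 1.36 in Apoe4 and 15.9 in Apoe3, and passed at 0.0364 when all genes with a p were adjusted. Rhag and Rhd, of the Rh blood group complex, had solved means of 2.72 and 7.04 in Apoe4, and 13.2 and 25.8 in Apoe3, and neither passed the threshold. Of 6 genes on this list with 1 solution, 5 had a solved log2 fold change of -2 or lower, and Rhd had -1.87.

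Among 14 tested carbonic anhydrases, Car1 and Car3 were lower and 0 higher, with a median log2 fold change of 0.00. Car3, an isoform best known from muscle and fat, had a log2 fold change of -0.38 ± 0.10 (SE) in the authors' deposited table (DESeq2 adjusted p = 0.0402). Car2, the other main red cell isoform, which many other cells make, had -0.18 in the authors' deposited table (DESeq2 adjusted p = 0.313). Without the length trend, 0 carbonic anhydrases passed, with Car3 at 0.198.

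Of 11 tested enzymes and maturation factors, Trim10 was lower and 0 were higher, with 9 negative folds and a median log2 fold change of -0.06. Trim10 is a ubiquitin-ligase family protein of maturing erythroblasts, and had a mean of 14.8 normalized counts and a log2 fold change of -0.47 ± 0.08 (SE) in the authors' deposited table (DESeq2 adjusted p = 2.6e-06). Its solved means were 4.25 in Apoe4 and 30.6 in Apoe3, with a CV of 40.7%. Trim10 was the only red cell gene to pass the Holm adjustment. Blvrb, a biliverdin reductase abundant in red cells, had a log2 fold change of -0.26 in the authors' deposited table (DESeq2 adjusted p = 0.197).

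None of the 8 erythroid transcription factors tested passed the threshold, and 2 had an unadjusted DESeq2 p under 0.05, Klf1 and Nfe2. Klf1 had a log2 fold change of -0.27 in the authors' deposited table (DESeq2 adjusted p = 0.158), with solved means of 14.2 in Apoe4 and 31.7 in Apoe3. Gata1, under the filter at 9.50 normalized counts, had solved means of 4.71 in Apoe4 and 16.7 in Apoe3, without a call. Several of these factors also act in megakaryocytes and mast cells.

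Of 12 tested genes of iron uptake and erythropoietin signalling, Ftl1, the ferritin light chain that stores iron in most cells, was lower, with a log2 fold change of -0.27 ± 0.07 (SE) in the authors' deposited table (DESeq2 adjusted p = 0.0201). Its call was lost without the length trend (adjusted p = 0.203). The list's median log2 fold change was 0.01 and 0 genes were higher. Erfe, an iron-regulating hormone of erythroblasts listed under an older symbol, had 0.18 in the authors' deposited table (DESeq2 adjusted p = 0.473). Of 9 genes for clearing haem and haemoglobin, 0 passed the threshold, also 0 at an unadjusted DESeq2 p under 0.05, with a median log2 fold change of -0.07.

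Cells that share vessels or marrow with red cells were read from 6 lists, of platelets, neutrophils, B cells, T and NK cells, endothelium, and pericytes with smooth muscle. Of 51 tested genes on them, 0 passed the authors' DESeq2 threshold, and 3 had an unadjusted p under 0.05. Their median log2 fold change was 0.00. Of all genes tested, 0.455% were called lower and 0.324% higher, so 0 of 51 does not set these lists apart. The difference between these lists and the red cell genes was not tested. Some genes on the neutrophil list are transcribed mainly in marrow. This need not hold for others on it, S100a8 among them. Ltf, lactoferrin, which glands also make, had a mean of 8327 normalized counts and a log2 fold change of 0.01 in the authors' deposited table (DESeq2 adjusted p = 0.982). S100a8, a calcium-binding protein of neutrophils, had solved means of 155 in Apoe4 and 179 in Apoe3, with a CV of 67.3%, close to that of Slc4a1. The median log2 fold change was -0.01 over 12 neutrophil genes, -0.01 over 9 platelet genes, -0.04 over 4 T and NK genes, 0.06 over 14 endothelial genes and 0.07 over 8 pericyte and muscle genes. All 4 tested B cell genes had negative folds, with a median of -0.15. Cd79a, a chain of the B cell receptor, had -0.20 in the authors' deposited table (DESeq2 adjusted p = 0.392). Under the filter, Rag1, Ms4a1 and Vpreb1 of that list had negative folds, with unadjusted DESeq2 p of 0.00612, 0.0173 and 0.0175. Pax5 and Igll1, also under it, had 0.252 and 0.881, and the fold of Igll1 was positive. The 4 B cell genes with 1 solution and a mean of at least 5 had a median solved log2 fold change of -1.07.

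**Figure D5:**
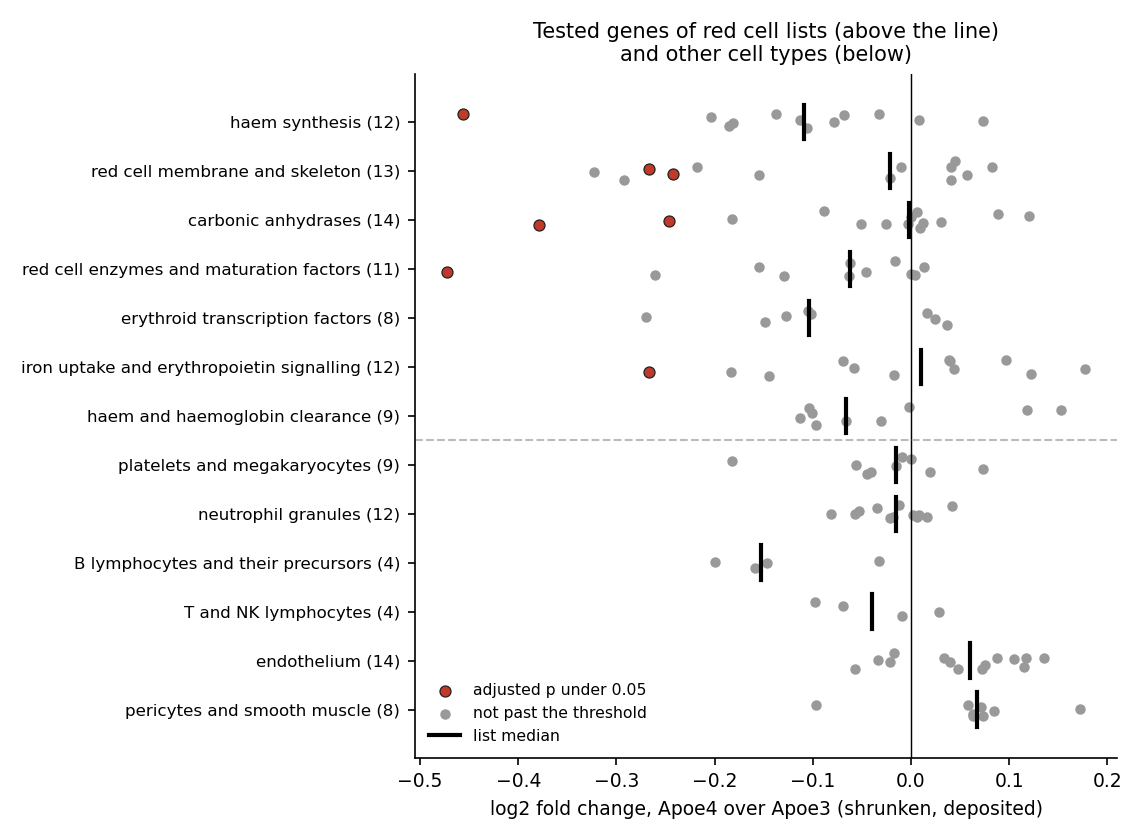
Shrunken log2 fold changes of Apoe4 over Apoe3 for each tested gene (points), by list, with the number tested in brackets and the list median as a bar. The called genes (red) all lie on red cell lists left of 0, and no gene of the 6 other lists is called. Of all genes tested, 0.455% were called lower and 0.324% higher, so the lack of calls does not set those 6 lists apart.

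The libraries held about 14900000 to 20100000 assigned reads each, and 14.5% of genes were listed at 0. The tissue's own markers were abundant, with Omp, of mature olfactory neurons, at 113676 normalized counts, and 0 of 8 olfactory neuron genes passed the threshold. All 5 supporting cell genes had negative folds, with a median log2 fold change of -0.08, from -0.26 for Cbr2 to -0.02 for Cyp2a5 in the authors' deposited table. Of them 1 was lower, Cbr2, with a DESeq2 adjusted p of 0.0421, and 2 had an unadjusted p under 0.05. The part of these cells in the erythroid values was not tested. The labels give no sex, and Y-linked genes were far lower in Apoe4: the authors' deposited table has a shrunken log2 fold change of -3.72 for Eif2s3y and 6.41 for the X-linked Xist. The part of sex in the erythroid values was not tested. With every X- and Y-linked gene but the member Alas2 left out of the adjustment, the same 3 members were called. In that setting 0.419% of genes were called lower. It changes only the adjustment and leaves each fold and unadjusted p as it was, so it does not bear on the animals' sex.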

How the data were processed

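Poly(A) RNA of olfactory epithelium was sequenced from 6 Apoe4 and 4 Apoe3 mice, which the labels call separate replicates. The submitters' processing notes name STAR, featureCounts, DESeq2 and the build GRCm38; for versions, settings and strandedness nothing is stated in the labels.

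What the authors deposited is a single table, 1 row per gene. Its mean column is a signal in normalized counts, reads per gene divided by size factors and averaged by the authors over the 10 libraries. The deposited log2 fold changes and log2 standard errors are shrunken, and the deposited score is the Wald statistic, equal to the fold over its error within 1.28e-13. The deposited p-values were adjusted by the authors over 16050 genes, equal to Benjamini-Hochberg values within 1.49e-14 (57 further genes with means over 10 lacked a p). Libraries' own values were not at hand, so the count test planned first was not run and the authors' DESeq2 test was used, at an adjusted p under 0.05.

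The table does not name the direction. Where only 1 library holds a single read of a gene, that library's size factor alone sets the gene's mean. The means of 517 such genes fell on 10 levels, of which 6 had positive folds and 4 negative ones, so positive is higher in Apoe4. Genotype means were solved from the mean, fold and standard error, a step chosen after seeing the data, and checked on simulated data. The members and all gene lists were chosen with earlier results of these data known. Named genes were the members, per red cell list every called gene and the 3 smallest p, per other list the 3 highest means and 2 smallest p, and the sex-linked genes; Cygb, Rhag and Rhd were added after their values were seen, and some genes that the rule names are left out here. Symbols, positions and promoters came from RefSeq (GRCm38.p6), and lengths, coding sequences and shared windows from each gene's longest GENCODE vM21 transcript. Alternatives were no filter, a mean of at least 50, no X and Y genes other than Alas2, Holm adjustment, a length trend (lowess, fraction 0.3) removed, a recentred statistic and a fold of 1.2. Python 3.11.15, numpy 2.4.6, pandas 2.3.3, scipy 1.17.1 and statsmodels 0.14.6 were used.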

Additional observations from a re-analysis of the deposited data

How the results depend on the processing

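The number of members lower in Apoe4 was 3 as reported, 4 with no filter on the mean, 2 with a mean of at least 50, 3 without the X and Y genes other than Alas2, 2 with the length trend removed and 3 with the statistic recentred. It was 0 under the Holm adjustment, where 27 genes of the table (0.168%) were lower instead of 73. It was also 0 against a fold of 1.2, where 12 genes (0.0748%) were lower. That last test used the shrunken folds, of which the model kept 9.81% for Slc4a1. Failing it therefore does not show that a gene's change before shrinkage lay under 1.2-fold. The number of other red cell genes lower was 4 as reported, 2 with a mean of at least 50, 1 under the Holm adjustment and 0 against a fold of 1.2; it stayed within 1.5 times 4 in the other settings. Other cell types had 0 called genes in every setting run, and with so few genes of the table called, that does not set them apart. No member reversed its direction, which among these settings only the length trend and the recentring could change. Epb42 was in neither of them. No paired analysis was possible because the table holds no values per library. For the same reason leaving out each library, edgeR and a rerun of DESeq2 were not run, so whether 1 library sets an erythroid value is not known from these data.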

Other observations

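Across the whole table, 20 genes with 1 solution and a mean of at least 5 had an unadjusted DESeq2 p under 0.001, and 15 of them were lower in Apoe4. The 10 of these with the lowest solved log2 fold change, chosen after their values were seen, held 6 genes of the red cell lists, among them Kel, Epb42, Slc4a1, Trim10 and Car1. Outside these lists were D830026I12Rik, an unnamed RIKEN transcript, Slc38a5, a glutamine transporter, Apol11b, an apolipoprotein L family member, and Asprv1, an aspartic protease known from skin. D830026I12Rik had solved means of 4.25 normalized counts in Apoe4 and 23.8 in Apoe3. Slc38a5 had 3.44 in Apoe4 and 18.1 in Apoe3. Apol11b had 4.03 in Apoe4 and 18.6 in Apoe3, and Asprv1 had 6.82 in Apoe4 and 28.3 in Apoe3.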
